A study of Mus musculus with 12 samples.

Results

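A set of 10 genes for MYC and the first checkpoint of the cell cycle were followed in mouse tumours driven by a fusion of EWSR1 and ATF1. They were taken by symbol from a table of 55536 genes, and all 10 were found: the MYC paralogs Myc, Mycn and Mycl, the D cyclins Ccnd1, Ccnd2 and Ccnd3, the kinases Cdk4 and Cdk6, and the inhibitors Cdkn1b and Cdkn2a. The choice asked which MYC paralog, which D cyclin and which inhibitor the tumours use.

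The tumours came from 2 kinds of mouse. In the translocation tumours (n = 5) the genotype was HprtCre with Ewsr1-loxP and Atf1-loxP, so that Cre from the Hprt locus can join the mouse genes Ewsr1 and Atf1. In the Rosa26 tumours (n = 6) it was Rosa26-LSL-EWSR1-ATF1, a transgene at the Rosa26 locus that Cre switches on by removing a stop cassette. Skeletal muscle labelled WT was represented by 1 library, and the number that leads its title also leads that of translocation tumour 1. The titles of translocation tumours 2 and 5 share their number too and differ by an added letter, and those of Rosa26 tumours 5 and 6 are consecutive numbers. The labels do not say whether such pairs came from 1 animal, so fits with each pair summed were run beside n = 5 and 6. The labels give neither the Cre source of the Rosa26 tumours nor the age of the mice. No animal received a drug, and samples were snap-frozen once the primary tumour caused illness.

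D cyclins bind CDK4 or CDK6, and the pair phosphorylates the retinoblastoma protein, which releases E2F factors and lets a cell leave G1. MYC proteins bind DNA with MAX at E-box sites and raise genes of growth, among them D cyclins and Cdk4 in many cell types. The inhibitor p27, from Cdkn1b, holds cyclin and CDK pairs in check, while Cdkn2a encodes the CDK4 and CDK6 inhibitor p16Ink4a and, from another first exon, the Arf protein that restrains Mdm2.

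Promoter sequences are shown for Cdk4, Mycn and Cdkn2a because theirs hold the E-box that MYC binds or the sites that E2F factors bind. They are the 250 bases before the RefSeq start on GRCm38.p6, 5′ to 3′ on the gene's strand, and 7 of the 10 genes had an entry, with 9 promoters in all. Myc, Ccnd1 and Ccnd2 had none. Capitals mark the E-box CACGTG in Cdk4 (chr10:127063285-127063534, plus strand), the E2F site TTTGGCGC in Mycn (chr12:12941837-12942086, minus strand) and the E2F site TTTCCCGC in the Arf promoter of Cdkn2a (chr4:89294620-89294869, minus strand).
Cdk4: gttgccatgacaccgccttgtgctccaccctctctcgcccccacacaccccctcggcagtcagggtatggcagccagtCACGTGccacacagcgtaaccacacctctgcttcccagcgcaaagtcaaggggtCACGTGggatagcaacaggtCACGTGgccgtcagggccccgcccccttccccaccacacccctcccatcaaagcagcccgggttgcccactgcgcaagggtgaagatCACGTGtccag
Mycn: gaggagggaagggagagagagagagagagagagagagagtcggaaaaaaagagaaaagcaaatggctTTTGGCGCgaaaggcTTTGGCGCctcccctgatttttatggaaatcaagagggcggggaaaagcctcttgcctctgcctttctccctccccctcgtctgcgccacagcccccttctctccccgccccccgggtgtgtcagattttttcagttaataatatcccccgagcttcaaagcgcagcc
Cdkn2a: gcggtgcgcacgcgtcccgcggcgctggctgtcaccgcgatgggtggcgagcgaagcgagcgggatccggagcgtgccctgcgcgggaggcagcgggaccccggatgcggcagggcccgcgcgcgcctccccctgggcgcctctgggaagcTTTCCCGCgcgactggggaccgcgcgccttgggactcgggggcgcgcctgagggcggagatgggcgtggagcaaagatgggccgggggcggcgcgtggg
Cdk4 held 4 E-boxes, beginning at -172, -118, -98 and -11 counted from the start. Of 32851 RefSeq mouse promoters of the same length, 6.02% held at least 1 E-box and 7 held 4 or more. Cdk6 had 1 E-box, at -220, and its sequence is not shown. Mycn held TTTGGCGC at -183 and -168, a site found in 0.42% of promoters and at least 2 times in 2 of them. TTTCCCGC stood at -99 before the Arf start and occurs in 0.89% of promoters. The full cAMP response site TGACGTCA, which ATF1 can bind, was in none of the 9 promoters and in 1.55% of all. Its TGACG part, which lies within the full site, was in both Ccnd3 promoters, in Cdk4 and in Cdk6, and in 17.77% of all. Both strands were searched for these letters only, so other forms of the sites were not counted. A match is a run of letters, not a measured binding site.

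Levels below are CPM, counts set against the library's total and scaled by TMM over all 12 libraries. Total counts were 2.96 to 21.2 M in the translocation tumours, 6.82 to 21.5 M in the Rosa26 tumours and 25 M in the muscle. Atf1, a check of the labels, was 34.1 to 64.8 CPM in the translocation tumours and 19.7 to 25.7 CPM in the Rosa26 tumours, but higher in the muscle, at 95.8 CPM. Gt(ROSA)26Sor, the transcript that the Rosa26 insertion interrupts, was 7.01 to 24.3 and 0.409 to 5.95 CPM, against 14.6 CPM in the muscle. The share of counts on genes with ribosomal sequence was 37.8% for translocation tumour 2, 30% for Rosa26 tumour 4 and 1.34% to 7.38% for the rest of the tumours. A list of 14 skeletal muscle genes summed to 43097 CPM in Rosa26 tumour 1, at most 4241 CPM in the other tumours and 325636 CPM in the muscle. Translocation tumour 5 stood apart from the other tumours in several genes described here, so results that rest on it are given with and without it. In bulk RNA, fewer cells of a type and less RNA per cell cannot be told apart.

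Compared per kilobase of the gene's joined exons, which allows genes to be set side by side, Ccnd2 was the most abundant of the 10 in every tumour except translocation tumour 5. There Cdk4 reached 221.1 and Myc 117.8 CPM per kilobase, against 71.7 for Ccnd2. The median of Ccnd2 over the 11 tumours was 102.1 CPM per kilobase, with a range of 71.7 to 257.9. Cdkn1b followed at a median of 33.6 and Cdk4 at 31.9 CPM per kilobase, and Cdkn1b was above Cdk4 in 5 of 11 tumours, so these neighbours were not separated on this length. Myc had a median of 14.4 CPM per kilobase and was below Cdk4 in all 11 tumours. Ccnd1, Ccnd3 and Cdkn2a had medians of 7.46, 7.14 and 5.37 CPM per kilobase, and each lay above the next in 6 or 7 of the 11 tumours. Myc was likewise above Ccnd1 in 6 tumours only. Cdk6 had a median of 2.54 CPM per kilobase, while Mycl and Mycn came last at 0.391 and 0.319 CPM per kilobase. The middle of this order depends on the length used. Per kilobase of the longest coding transcript, Ccnd2 again came first, at a median of 151.8, and Cdk4 at 50.5 lay above Cdkn1b at 33.6 in 10 of 11 tumours. Ccnd3, with 8775 bases of joined exons and 2113 in that transcript, moved to 29.6 CPM per kilobase and lay above Myc, at 16.8, in 10 of 11. The order from Myc down was otherwise the same, with Ccnd1, Cdkn2a, Cdk6, Mycl and Mycn.

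**Figure D1:**
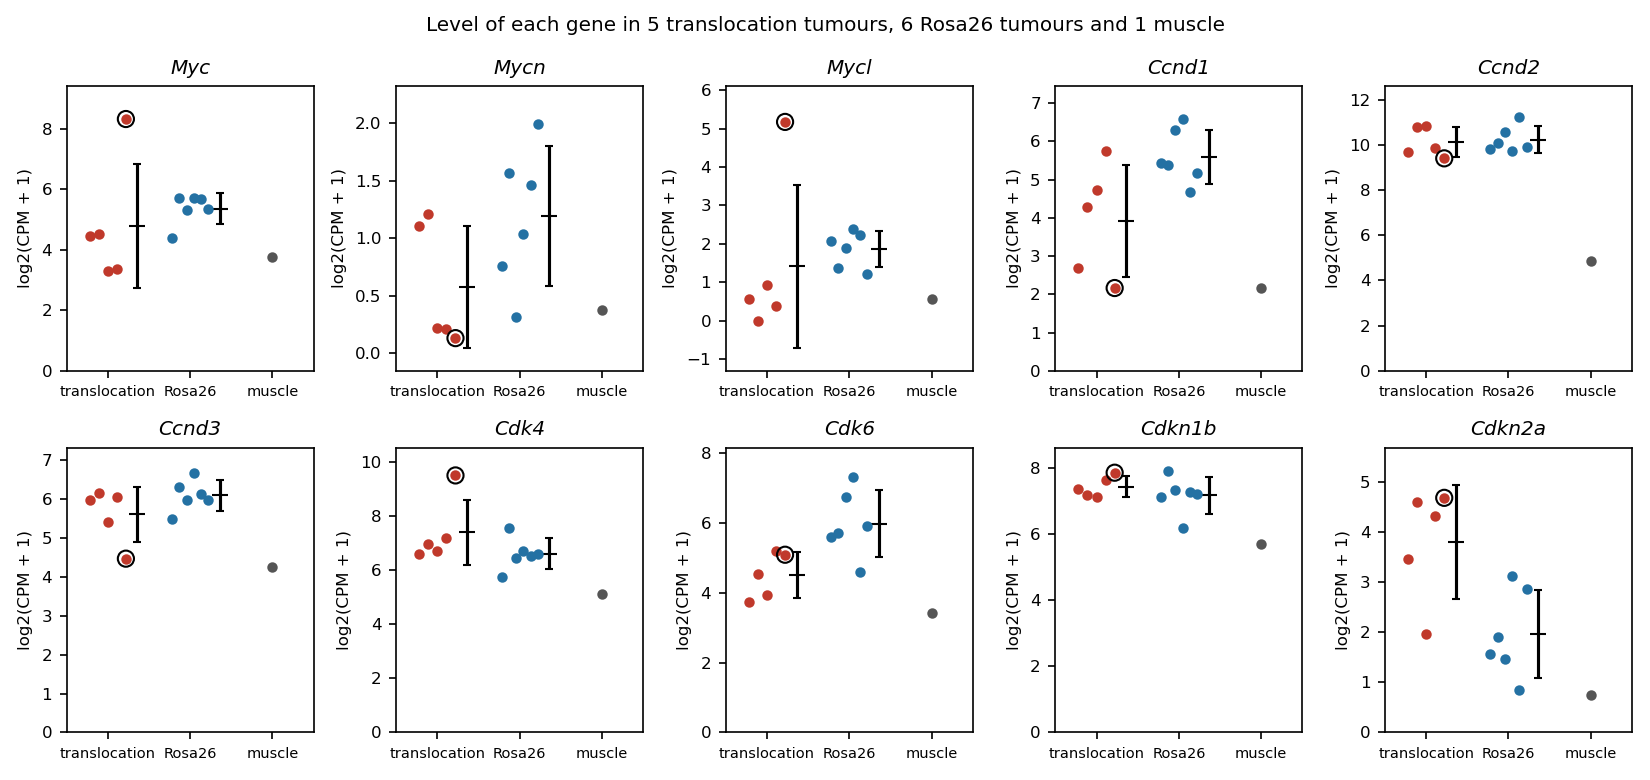
Level of each of the 10 genes as log2(CPM + 1) in every library, with 1 point per tumour or muscle library and the mean ± SD of each tumour group as a bar. The ringed point, translocation tumour 5, is the highest for Myc, Mycl and Cdk4, and every tumour is above the muscle for Ccnd2.

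Myc (ENSMUSG00000022346, chromosome 15, 61985391 to 61990374, mm10) was the MYC paralog of these tumours by level. It made up 92.4% to 96.5% of the summed CPM per kilobase of the 3 paralogs in the translocation tumours, 87.9% to 95.0% in the Rosa26 tumours and 95.6% in the muscle. Translocation tumours 1 to 5 held 21.2, 21.9, 8.93, 9.28 and 320.2 CPM. In the Rosa26 tumours it ran from 19.9 through a median of 45.4 to 51.6 CPM, and the muscle held 12.5 CPM. Tumours 3 and 4 of the translocation group were below the muscle, and tumour 5 was 20.9 times the mean of the other 4. In the edgeR quasi-likelihood fit, adjusted by Benjamini-Hochberg over 17021 genes, Myc had a log2 fold change of 0.90 ± 0.85 (SE, n = 5 and 6) between translocation and Rosa26 tumours, with an adjusted p of 0.543. The direction turned without translocation tumour 5, where the log2 fold change was -1.43 ± 0.37 and edgeR's adjusted p was 0.055. Translocation tumours 1 to 4 then held 15.3 ± 7.19 CPM (SD, n = 4) and 2 of them were below every Rosa26 tumour, whose mean was 42.1 ± 12.3 CPM (SD, n = 6).

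Mycn (ENSMUSG00000037169, chromosome 12, 12936093 to 12941914), the paralog known from neural crest and neuroblastoma, was low in every library, with 2 to 12 counts in the translocation tumours, 6 to 61 in the Rosa26 tumours and 3 in the muscle. It measured 1.15, 1.31, 0.162, 0.155 and 0.093 CPM in translocation tumours 1 to 5, and 0.245 to 3.0 CPM with a median of 1.41 in the Rosa26 tumours. The muscle held 0.293 CPM, and the groups overlapped. Between tumour groups the log2 fold change was -1.59 ± 0.86 and edgeR's adjusted p was 0.273.

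Mycl (ENSMUSG00000028654, chromosome 4, 122995652 to 123002485), the paralog first found in lung carcinoma, was low in all tumours except 1. Translocation tumours 1 to 5 held 0.480, 0, 0.893, 0.311 and 35.1 CPM, from 5, 0, 22, 6 and 754 counts. At the depth of translocation tumour 2, a count of 0 allows up to 3 counts, or 1.31 CPM. The Rosa26 tumours ran from 1.33 through a median of 2.99 to 4.20 CPM, and the muscle held 0.488 CPM. Translocation tumours 1 to 4 were all below every Rosa26 tumour, while tumour 5 was above all of them. The log2 fold change over all tumours was 1.47 ± 1.16 (edgeR adjusted p = 0.463). Without tumour 5 it turned to -2.44 ± 0.61 and passed the threshold (edgeR adjusted p = 0.0487), and leaving out translocation tumours 2 and 5 and Rosa26 tumour 4 together gave -2.10 with an adjusted p of 0.0731.

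In the D cyclins, Ccnd2 (ENSMUSG00000000184, chromosome 6, 127125162 to 127152193) dominated both kinds of tumour. It made up 84.1% to 95.8% of the summed CPM per kilobase of the 3 D cyclins in the translocation tumours and 74.1% to 95.1% in the Rosa26 tumours, but 51.1% in the muscle. Ccnd3 made up 35.9% and Ccnd1 13.0% of the sum in the muscle. With the length of the longest coding transcript in place of the exon union, Ccnd2 kept at least 64.8% in every tumour, while the order in the muscle turned to 61.7% for Ccnd3 and 31.5% for Ccnd2.

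**Figure D2:**
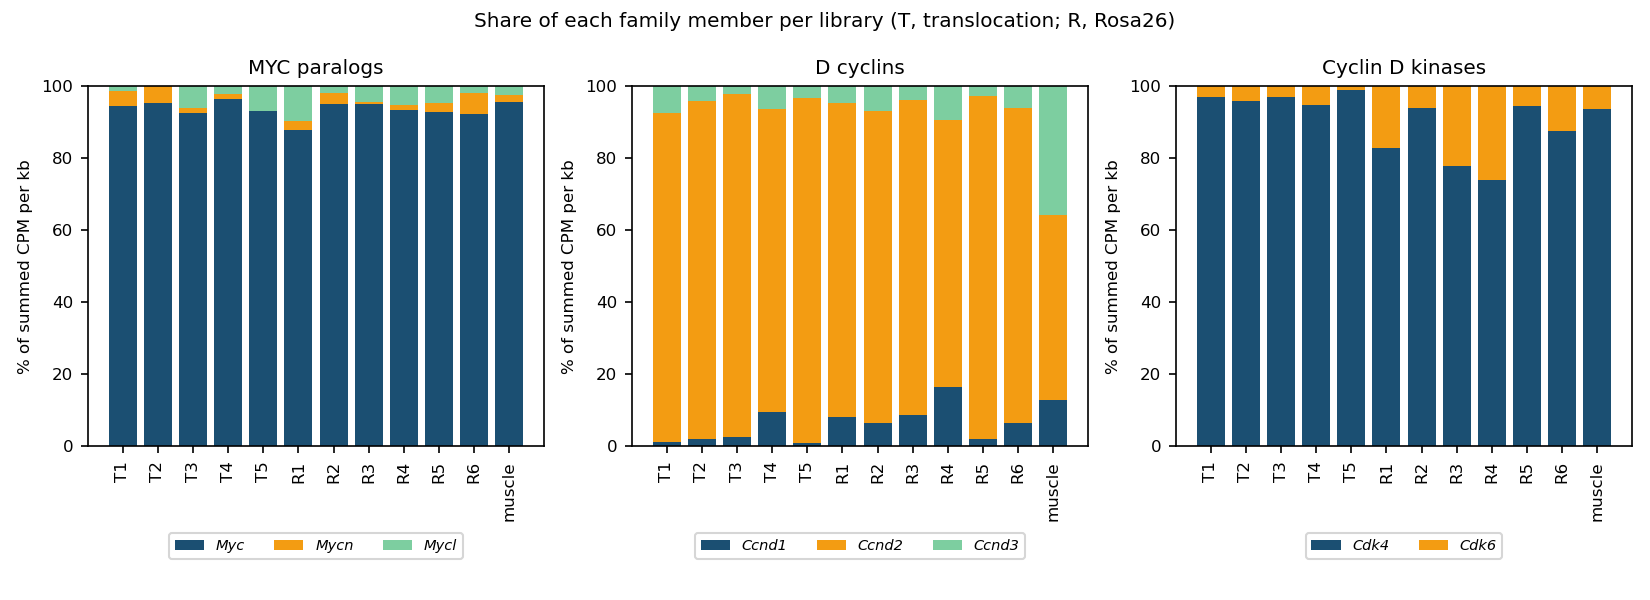
Share of each gene in the summed CPM per kilobase of its family (percent), by library, for the MYC paralogs, the D cyclins and the kinases Cdk4 and Cdk6. Myc, Ccnd2 and Cdk4 take most of their family in every tumour, and the Cdk6 share is 1.05% to 5.39% in the translocation tumours and 5.53% to 26.1% in the Rosa26 tumours.

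Ccnd2 measured 813, 1744, 1841, 929 and 675 CPM in translocation tumours 1 to 5. In the Rosa26 tumours it ran from 854 through a median of 1019 to 2427 CPM, and the muscle held 27.6 CPM. Every tumour was far above the muscle, and the tumour groups overlapped. In a fit of all 12 libraries, where the 1 muscle library is taken to vary as the tumours do, Ccnd2 rose in both groups. The log2 fold change was 5.44 ± 1.13 in the translocation tumours (edgeR adjusted p = 0.00944) and 5.55 ± 1.14 in the Rosa26 tumours (edgeR adjusted p = 0.00738). These comparisons share the muscle library. Leaving out each tumour in turn gave 5.23 to 5.59 and 5.27 to 5.64, with the call held in all 11 fits of each. Between translocation and Rosa26 tumours the log2 fold change was -0.06 ± 0.42 (edgeR adjusted p = 0.947).

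Ccnd1 (ENSMUSG00000070348, chromosome 7, 144929931 to 144939925), the D cyclin most often induced by growth factor signals, varied widely among tumours. It was 5.47, 18.4, 25.4, 52.7 and 3.49 CPM in translocation tumours 1 to 5 and 24.8 to 94.8 CPM, with a median of 41.5, in the Rosa26 tumours. The muscle held 3.52 CPM, about the level of translocation tumour 5. In 3 of 5 translocation tumours Ccnd1 was below every Rosa26 tumour, and the log2 fold change was -1.29 ± 0.63 (edgeR adjusted p = 0.227). Exons of Ccnd1 overlap those of LTO1 on the other strand over 1100 bases, and LTO1 was 11.8 to 18.1 CPM in the tumours. The sources used here do not say whether the counting used strand, so reads of the overlap may be shared where Ccnd1 is low.

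Ccnd3 (ENSMUSG00000034165, chromosome 17, 47505051 to 47599691), a D cyclin with known roles in lymphocytes and in muscle differentiation, was steadier. Translocation tumours 1 to 5 held 62.6, 70.5, 41.5, 65.6 and 21.2 CPM, and the Rosa26 tumours 44.3 to 101.3 CPM with a median of 66.0. The muscle held 18.1 CPM, below every tumour. The log2 fold change between tumour groups was -0.38 ± 0.32 (edgeR adjusted p = 0.499). Ccnd3 overlaps Bysl on the other strand over 361 exon bases, and Bysl was 9.05 to 25.2 CPM in the tumours, so the low Ccnd3 level of translocation tumour 5 may hold shared reads.

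The sum of fibroblast markers moved with some of these values at the extremes. A list of 9 fibroblast genes summed to 3021, 1909, 11642, 22097 and 221 CPM in translocation tumours 1 to 5 and to 5449 to 98603 CPM in the Rosa26 tumours, against 326 CPM in the muscle. Rosa26 tumour 4 was highest for this sum and also for Ccnd1, Ccnd3 and Cdk6. Most of its sum came from the collagen genes Col1a1, Col1a2 and Col3a1, at 49305.8, 37550.9 and 11288.7 CPM. Among tumours, Rosa26 tumour 4 was highest for these collagen genes, Pdgfrb and Thy1, but not for Dcn, Lum, Pdgfra or Fap. Translocation tumour 5 was lowest for the sum and also for Ccnd1 and Ccnd3, but it was lowest for 4583 of all 17021 genes. All 9 genes were detected in each library except translocation tumour 2, where Lum was at 0. The sum of 8 endothelial genes did not share these extremes. It was highest in translocation tumour 1, at 767 CPM, and lowest in translocation tumour 3, at 269 CPM. Translocation tumour 5 had 337 CPM and Rosa26 tumour 4 had 379 CPM. In translocation tumours 1, 2 and 5 Kdr made up most of the sum, at 717, 700 and 279 CPM. Pecam1 was 14.8, 10.5 and 11.3 CPM in them, against 43.0 to 114 CPM in the Rosa26 tumours. Cdh5 was 9.60, 5.69 and 5.67 CPM, against 34.5 to 88.2 CPM. Tie1, at 22.1 CPM in translocation tumour 5, lay within the 18.4 to 51.6 CPM of the Rosa26 tumours. The part of fibroblasts in the Ccnd1, Ccnd3 and Cdk6 values was not tested. Rosa26 tumour 1, with the highest sum of skeletal muscle genes among tumours, was the lowest Rosa26 tumour for Myc, Ccnd3 and Cdk4, and the part of muscle RNA in those values was not tested either.

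Cdk4 (ENSMUSG00000006728, chromosome 10, 127063534 to 127067920), the partner of D cyclins in most tissues, exceeded Cdk6 per kilobase in every library. Its share of their sum was 94.6% to 98.9% in the translocation tumours, 73.9% to 94.5% in the Rosa26 tumours and 93.7% in the muscle. The level of Cdk4 was 94.3, 123.5, 104.3, 145.0 and 718.3 CPM in translocation tumours 1 to 5. The Rosa26 tumours ran from 52.9 through a median of 93.8 to 184.0 CPM, and the muscle held 34.0 CPM. Tumour 5 was 6.15 times the mean of the other 4 translocation tumours, which lay within the range of the Rosa26 tumours. The log2 fold change was 1.25 ± 0.56 with an unadjusted p of 0.0434 by edgeR and an adjusted p of 0.189. Without tumour 5 it was 0.22 ± 0.31 (edgeR adjusted p = 0.712). Cdk4 overlaps Tspan31 on the other strand over 641 exon bases, and Tspan31 in tumour 5 lay within the 55.6 to 137.5 CPM of the other tumours.

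Cdk6 (ENSMUSG00000040274, chromosome 5, 3341485 to 3531008), the kinase prominent in blood cells and stem cells, had the opposite sign. Translocation tumours 1 to 5 held 12.4, 22.3, 14.3, 35.5 and 33.0 CPM, and the Rosa26 tumours 23.1 to 157.3 CPM with a median of 54.8. The muscle held 9.77 CPM. In 3 translocation tumours Cdk6 was below every Rosa26 tumour, and the other two were above Rosa26 tumour 5 alone. Its log2 fold change was -1.62 ± 0.49 with an adjusted p of 0.0791 by edgeR and an adjusted p of 0.0143 by the DESeq2 Wald test.

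Of the inhibitors, Cdkn1b (ENSMUSG00000003031, chromosome 6, 134920401 to 134925513) was the more abundant in every library per kilobase. It was 164, 144, 139, 198 and 230.3 CPM in translocation tumours 1 to 5, and 71.7 to 239 CPM with a median of 150.4 in the Rosa26 tumours. The muscle held 51.3 CPM, below all 11 tumours. The tumour groups overlapped fully, with a log2 fold change of 0.25 ± 0.30 (edgeR adjusted p = 0.638).

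Cdkn2a (ENSMUSG00000044303, chromosome 4, 89274471 to 89294653) had the largest positive log2 fold change of the 10 between tumour groups and missed the threshold. It was 9.98, 23.2, 2.88, 18.9 and 24.6 CPM in translocation tumours 1 to 5. The Rosa26 tumours ran from 0.804 through a median of 2.36 to 7.70 CPM, and the muscle held 0.684 CPM. In 4 of 5 translocation tumours the level was above every Rosa26 tumour, while tumour 3 lay within their range. The log2 fold change was 2.22 ± 0.65 with an adjusted p of 0.0753 by edgeR and of 0.00972 by the DESeq2 Wald test. Without translocation tumour 3 it was 2.49 and passed (edgeR adjusted p = 0.0485). Counts per gene cannot separate p16Ink4a from Arf, which share their later exons.

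Between translocation and Rosa26 tumours, none of the 10 genes passed edgeR's adjusted threshold of 0.05, where 2.7% of the 17021 genes tested did. At an unadjusted p under 0.05 there were 3, Cdk4, Cdk6 and Cdkn2a, against 24.8% of all genes by edgeR. The DESeq2 Wald test called 2, Cdk6 and Cdkn2a, against 14.3% of all genes, but gave no adjusted p for Myc. Groups without overlap were found for 0 of the 10 genes and for 5.32% of all genes. The median log2 fold change of the 10 was 0.10 and that of all genes 0.07, and 5 of the 10 were positive. Without translocation tumour 5 these medians were -0.60 and -0.00.

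**Figure D3:**
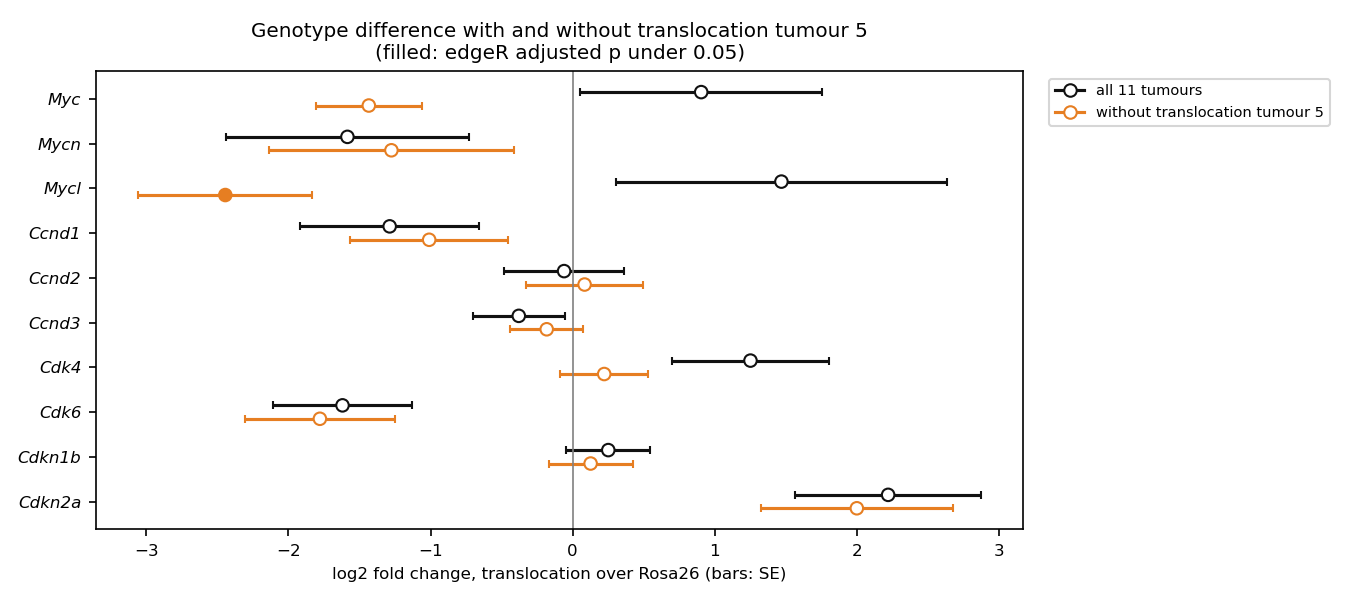
Log2 fold change of the 10 genes, translocation over Rosa26, with all 11 tumours (black) and without translocation tumour 5 (orange), with the SE of the edgeR fit as bars. Filled points passed an adjusted p of 0.05, which only Mycl without tumour 5 did, at -2.44, and Myc moves from 0.90 to -1.43.

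Against muscle the 10 genes were all positive in both tumour groups, with medians of 2.60 in the translocation tumours and 2.31 in the Rosa26 tumours, beside 0.74 and 0.64 over all genes. Only Ccnd2 was called higher, at an adjusted p under 0.05 and a log2 fold change of at least 1, where 3.95% of 22184 genes were called higher in the translocation tumours and 5.51% in the Rosa26 tumours. Every translocation tumour was above the muscle for Ccnd2, Ccnd3, Cdk4, Cdk6, Cdkn1b and Cdkn2a, or 6 of the 10, against 23.1% of all genes. Every Rosa26 tumour was above it for 9 of the 10, all but Mycn, against 35.8% of all genes. At an unadjusted p under 0.05 there were 5 of the 10 in each comparison by edgeR, against 29.3% of all genes in the translocation and 33% in the Rosa26 tumours. The DESeq2 Wald test called 3 and 5, against 22.1% and 26.6% of all genes, again with no adjusted p for Myc. Cdkn1b had log2 fold changes of 1.77 and 1.56, with edgeR adjusted p-values of 0.0771 and 0.0928. It was called in both groups without Rosa26 tumour 4 (edgeR adjusted p = 0.0382 and 0.040) and by the DESeq2 Wald test (adjusted p = 0.0156 and 0.0332). Cdkn2a had 4.52 and 2.34, with edgeR adjusted p-values of 0.0888 and 0.26. Ccnd3 had 1.53 and 1.95 (edgeR adjusted p = 0.142 and 0.0654) and was called in both groups without translocation tumour 5, at edgeR adjusted p-values of 0.0272 and 0.0139. Ccnd1 had 2.58 and 3.90 (edgeR adjusted p = 0.228 and 0.0912), and in the Rosa26 tumours it was called without translocation tumour 5 (edgeR adjusted p = 0.0362). Of 21511 genes, that fit called 5115 in the translocation and 6014 in the Rosa26 tumours, in either direction. The fit without Rosa26 tumour 4 called 2988 and 3350 of 22121 genes. Cdk4 had 2.80 and 1.59 and Cdk6 1.27 and 2.92, with edgeR adjusted p-values between 0.0751 and 0.373. Without translocation tumour 5 the Cdk4 value for the translocation tumours was 1.78. Myc had 2.61 and 1.75 (edgeR adjusted p = 0.364 and 0.488) and Mycl 3.92 and 2.49 (edgeR adjusted p = 0.375 and 0.512), but without translocation tumour 5 the values for that group were 0.27 and -0.0033. Mycn had 0.71 and 2.29, with edgeR adjusted p-values of 0.794 and 0.367.

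The surrounding pathway was read from 8 lists. Their counts between tumour groups stand against 24.8% of all genes at an unadjusted p under 0.05 by edgeR and 14.3% called by the DESeq2 Wald test. Among partners and antagonists of MYC and related factors, 0 of 9 tested genes were called between tumour groups by edgeR. Their median log2 fold change was -0.26. At an unadjusted p under 0.05 there was 1, and the DESeq2 Wald test called 0. Mxd4, an antagonist, was 90.2 ± 30.6 CPM (SD, n = 5) in the translocation and 147 ± 63.7 CPM (SD, n = 6) in the Rosa26 tumours, and Mlx, a partner of the related Mondo factors, 25 ± 6.52 and 15.4 ± 4.17 CPM. Against muscle, Mxd3 was higher in both groups (edgeR adjusted p = 0.0274 and 0.0344), with 0 counts in the muscle library. Mlxipl, the glucose-responsive ChREBP, was lower in the translocation tumours, with a log2 fold change of -6.96 (edgeR adjusted p = 0.0473). The DESeq2 Wald test gave no adjusted p for either gene.

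Of 15 textbook MYC targets, 1 rose in the translocation tumours, where 1.14% of all genes did, and 0 fell. It was Odc1, the rate-limiting enzyme of polyamine synthesis, at 148, 243, 354.5, 215 and 476 CPM in translocation tumours 1 to 5 and 95.7 to 132 CPM in the Rosa26 tumours. Its groups did not overlap, the log2 fold change was 1.40 ± 0.30 and edgeR's adjusted p was 0.0356. The call was held in 5 of 11 fits that left out 1 tumour, and was lost without translocation tumour 3 or Rosa26 tumours 1, 3, 4, 5 or 6, at edgeR adjusted p-values of 0.0537 to 0.101. The muscle held 507 CPM of Odc1, and the gene fell in the Rosa26 tumours against muscle, with a log2 fold change of -2.18 (edgeR adjusted p = 0.0086). Ddx21 and Rrp12, nucleolar factors of ribosome assembly, fell in both groups, by 2.30 and 3.72 on the log2 scale in the translocation tumours and by 2.19 and 3.18 in the Rosa26 tumours. The median of the 15 between tumour groups was 0.54 with 11 positive, and -0.37 with 3 positive without translocation tumour 5.

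Downstream of the D cyclins, 0 of 15 S-phase targets of E2F were called between tumour groups, although 14 were positive and their median was 1.01. By edgeR 5 had an unadjusted p under 0.05, and the DESeq2 Wald test called 1. Without translocation tumour 5 the median was 0.03 and 8 were positive. Pcna, the clamp of DNA polymerase, was 99.0 ± 109 and 41.6 ± 17.9 CPM, and Rrm2, a subunit of ribonucleotide reductase, 61.3 ± 70.1 and 30.9 ± 4.82 CPM, in translocation and Rosa26 tumours (SD, n = 5 and 6). Without translocation tumour 5 the log2 fold change went from 1.30 to 0.31 for Pcna and from 1.03 to 0.026 for Rrm2. Against muscle, Gins2, part of the replicative helicase, rose in both groups, and Tyms, thymidylate synthase, rose in the translocation tumours.

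**Figure D4:**
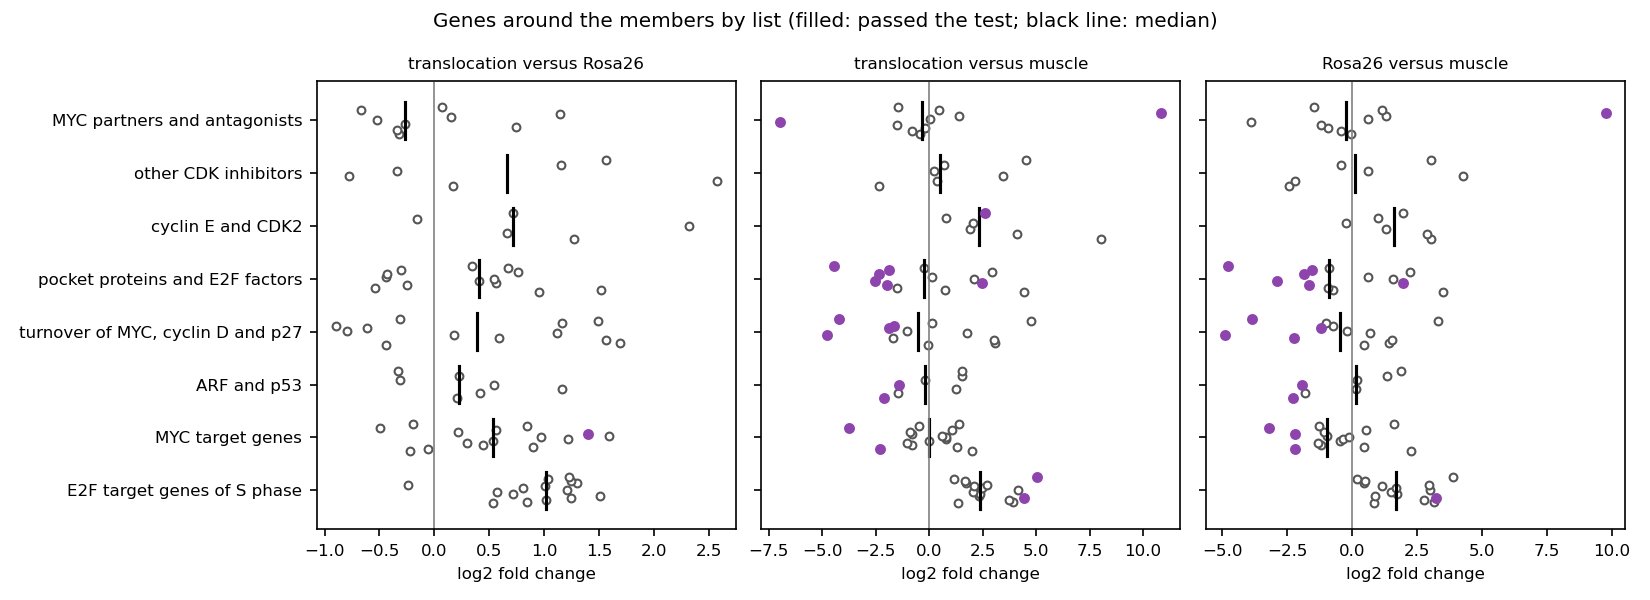
Log2 fold change of every tested gene of the 8 lists (1 point per gene, black line at the list's median) in the 3 comparisons, with genes that passed the test filled. The E2F targets have medians of 1.01, 2.40 and 1.70, and the far right points against muscle are Mxd3, whose fitted value rests on 0 counts in the muscle.

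Among cyclin E and CDK2 genes, which act after the D cyclins, 0 of 5 tested were called between tumour groups, with a median of 0.72 that was -0.18 without translocation tumour 5. By edgeR 2 had an unadjusted p under 0.05, and the DESeq2 Wald test called 1. Ccne2 was 44.5 ± 59.4 and 9.16 ± 4.26 CPM (edgeR adjusted p = 0.0772), and Ccna2 41.7 ± 62.8 and 17.8 ± 4.57 CPM, in translocation and Rosa26 tumours (SD, n = 5 and 6). Without translocation tumour 5 the log2 fold change of Ccne2 went from 2.32 to 1.02 (edgeR adjusted p = 0.18), and that of Ccna2 from 1.28 to -0.33. Cdk2 was higher in the translocation tumours than in muscle, with a log2 fold change of 2.62 (edgeR adjusted p = 0.0261). Of 13 pocket protein and E2F genes, 0 were called between tumour groups by edgeR, 1 had an unadjusted p under 0.05, and the DESeq2 Wald test called 0. Against muscle, Rb1, Rbl2, E2f4, E2f6 and Tfdp2 fell and E2f5 rose in both groups. Over all genes 8.46% were called lower in the translocation and 10.5% in the Rosa26 tumours. The retinoblastoma gene Rb1 had log2 fold changes of -2.33 in the translocation and -1.86 in the Rosa26 tumours (edgeR adjusted p = 0.0183 and 0.039). Tfdp2, a dimer partner of E2F factors, fell by 4.46 and by 4.75 (edgeR adjusted p = 0.000203 and 0.000227).

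Of 6 other CDK inhibitors, 0 were called in any of the 3 comparisons by edgeR. Between tumour groups 3 had an unadjusted p under 0.05 and the DESeq2 Wald test called 3, and against muscle these counts were 3 and 2 in the translocation and 4 and 1 in the Rosa26 tumours. Over all genes these shares were 24.8% and 14.3%, 29.3% and 22.1%, and 33% and 26.6%. Cdkn2d, which encodes an inhibitor of CDK4 and CDK6, was 18.7 ± 7.07 CPM (SD, n = 5) in the translocation and 8.62 ± 1.70 CPM (SD, n = 6) in the Rosa26 tumours without overlap. Its log2 fold change was 1.15 ± 0.28 with an adjusted p of 0.0505 by edgeR, 0.0381 without translocation tumour 5 and 0.00186 by the DESeq2 Wald test. Cdkn1a, the p53 target p21, was 39.9 ± 38.3 and 36.6 ± 14.9 CPM (SD, n = 5 and 6).

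Of 12 genes that turn over MYC, D cyclins and p27, 0 were called between tumour groups by edgeR, while 8 had an unadjusted p under 0.05, against 24.8% of all genes, and the DESeq2 Wald test called 4, against 14.3%. Huwe1, a ubiquitin ligase with MYC among its substrates, was 264 ± 42.0 CPM (SD, n = 5) in the translocation and 507 ± 86.1 CPM (SD, n = 6) in the Rosa26 tumours without overlap, at a log2 fold change of -0.90 ± 0.25 (edgeR adjusted p = 0.0686). Cul1, the scaffold of SCF ligases, was 114 ± 63.2 and 78.0 ± 26.9 CPM. Against muscle, 4 of the 12 fell in each group, with Usp28, Fbxo31 and Gsk3b, the kinase that marks cyclin D1 and MYC for destruction, in both. Of 7 ARF and p53 genes, 0 were called between tumour groups by edgeR, 0 had an unadjusted p under 0.05 and the DESeq2 Wald test called 0. Against muscle, Mdm2 and the Polycomb gene Bmi1, which represses Cdkn2a, fell in both groups. Bmi1 fell by 2.11 and 2.27 on the log2 scale, and Mdm2 by 1.42 and 1.92.

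Some of the pathway calls against muscle ended when 1 tumour was left out of the 12-library fit, at the edgeR adjusted p-values given here. In the translocation tumours, Mlxipl was lost on leaving out any of translocation tumours 1, 3, 4 and 5 and Rosa26 tumours 2, 3, 4 and 6 (0.0508 to 0.0904). Mdm2 was lost on leaving out any of translocation tumours 1 to 4 and Rosa26 tumours 2, 3, 5 and 6 (0.052 to 0.078), and Tyms without Rosa26 tumours 2, 3 or 6 (0.0512 to 0.0516). In the Rosa26 tumours, Gins2 was lost on leaving out translocation tumour 3 or 4 or any of Rosa26 tumours 2 to 6 (0.0524 to 0.0676). Cul1 was lost on leaving out any of translocation tumours 1, 3 and 4 and Rosa26 tumours 2, 3, 5 and 6 (0.0507 to 0.07), and Rb1 without translocation tumour 1 or Rosa26 tumours 2, 3, 5 or 6 (0.0504 to 0.07). Mxd3 was lost without Rosa26 tumours 2, 3, 5 or 6 (0.0505 to 0.0522), E2f5 without Rosa26 tumours 2, 5 or 6 (0.0539 to 0.0548) and Gsk3b without Rosa26 tumour 6 (0.0587). The other pathway genes called against muscle, Cdk2, Rbl2, E2f4, E2f6, Tfdp2, Usp28, Fbxo31, Huwe1, Bmi1, Ddx21 and Rrp12, passed in all 11 fits of the comparisons in which they were called, as did Odc1 in the Rosa26 tumours.

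Translocation tumour 5 was the highest of the 11 tumours for 15 of 15 E2F targets, 13 of 15 MYC targets and 5 of 5 cyclin E and CDK2 genes, against 27.8% of all 17021 genes. Mki67, a proliferation marker, was 210.7 CPM in it and 25 to 145 CPM in the other tumours. In the other lists it was highest for 3 of 9 MYC partners and antagonists and 2 of 6 other CDK inhibitors. It was also highest for 5 of 13 pocket protein and E2F genes, 5 of 12 turnover genes and 4 of 7 ARF and p53 genes. Among the 10 genes it was highest for Myc, Mycl, Cdk4 and Cdkn2a and lowest for Mycn, Ccnd1, Ccnd2 and Ccnd3. Over all 17021 genes it was highest for 4735 and lowest for 4583. A list of 8 melanocyte genes summed to 464 CPM in it, against 9.70 to 54.9 CPM in the other tumours. That sum came from Dct at 300.1 and Mitf at 163 CPM, while Tyr, Tyrp1, Mlana and Slc45a2 were at 0 there.

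Genes beside Myc, Cdk4, Mycl and Ccnd2 were examined after their values were seen, within 500 kb and at a median of at least 1 CPM in the other tumours. Pvt1, a noncoding gene next to Myc and its only such neighbour, was 281.9 CPM in tumour 5 against a median of 23.5 and a maximum of 39.1 CPM in the other 10. Its ratio to that median was 12, beside 10.5 for Myc itself. Around Cdk4, whose ratio was 7.19, the 28 neighbours had a median ratio of 0.403 and 5 exceeded all other tumours, with Atp23 at 4.56 and Shmt2 at 3.30. Around Mycl, whose ratio was 24.1, the 9 neighbours had a median ratio of 0.989 and Ppie was highest at 4.05. Around Ccnd2, which was not raised in tumour 5 at a ratio of 0.662, the 9 neighbours had a median ratio of 0.667, yet Rad51ap1 at 11.5, Ndufa9 at 6.35 and Tigar at 4.21 exceeded all other tumours. Why Myc and Pvt1 were both high in tumour 5 was not tested.

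**Figure D5:**
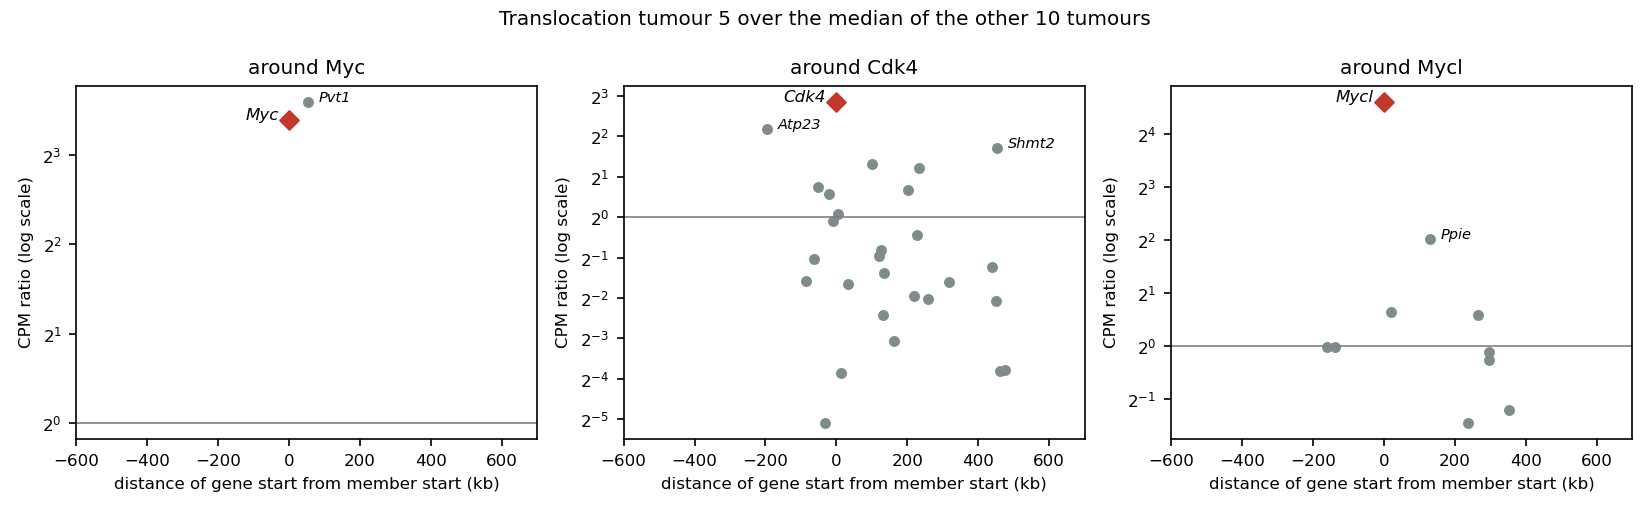
CPM in translocation tumour 5 divided by the median of the other 10 tumours (log axis) for genes within 500 kb of Myc, Cdk4 and Mycl, by distance of gene starts in kb, with the named gene as a diamond. Pvt1 lies at 12 next to Myc at 10.5, and Gli1 near Cdk4, at 0 in tumour 5, is not drawn.

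Over the 11 tumours, each of the 10 genes was set against 11509 genes by Pearson's r of log2 CPM, as a description of likeness. All points share the same libraries and depths. Myc was most like Bri3bp (0.967), Tgif2 (0.959) and Gemin5 (0.957), and Mycl most like Pole (0.969), Hira (0.955) and Nsd2 (0.953). Without translocation tumour 5 the r of Myc with Bri3bp was 0.937 and that of Mycl with Pole 0.954. For Mycn the closest was Itpkc (0.830). Ccnd1 was most like Mon1a (0.963) and the endothelial gene Plvap (0.958), Ccnd2 like the imprinted gene Peg13 (0.851), and Ccnd3 like Rps6ka4 (0.979). Cdk4 was most like Nme4 (0.964) and Usp5 (0.962), at 0.870 and 0.924 without translocation tumour 5, and Cdk6 like Cemip2 (0.912). Cdkn1b was most like Cldnd1 (0.977) and Cdkn2a like Mrgbp (0.908). Among the 45 pairs of the 10 genes, Myc and Mycl had the highest r over 11 tumours, 0.780, which was 0.552 without translocation tumour 5. Ccnd1 and Cdk6 came next at 0.693, and had the highest r without that tumour, 0.867.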

How the data were processed

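RNA was measured in 12 mouse samples, and groups followed the genotype in the labels. The authors deposited whole-number counts per Ensembl gene, not normalized. Per the labels, the library kit was Illumina TruSeq Stranded with removal of ribosomal RNA. The tools in the submitters' processing notes are STAR 2.7.5a, cutadapt, RSEM, featureCounts and DESeq2, with the build mm10 and no order of use. The sources used here give neither the strand setting nor the annotation release. Symbols, positions and exon lengths were taken from GENCODE M21, which is on mm10 too, and all 55536 identifiers had a symbol.

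The 10 genes and the pathway and cell type lists were chosen with earlier results of these data known. Tumour groups were compared with edgeR 4.0.16 (R 4.3.3) in a fit of the 11 tumours (TMM scaling, filterByExpr at a minimum count of 10, robust quasi-likelihood tests, Benjamini-Hochberg adjustment at 0.05). Comparisons with muscle used a fit of all 12 libraries and a further minimum of 1 for the size of the log2 fold change. The scripts were tested on simulated data. The labels do not say whether samples came from separate animals, so the p-values reflect only sample-to-sample spread, some of which may be technical. Each of the 55 tumour pairs differed beyond sampling noise, with a smallest median chi-square per gene of 6.43. From each pathway list, up to 4 called genes were named, or the 2 with the highest CPM per kilobase where none was called between tumour groups. Genes called against muscle, and the values of tumour 5's neighbours and of Mki67, were added after their values were seen. Likeness used genes with a mean of at least 5 CPM and a prior count of 2. As alternatives, the Wald test of DESeq2 1.42.0 and its size factors were tried, with other filters, muscle kept in the fit, pairs of libraries with like titles summed, libraries left out, and, chosen after seeing the data, the longest coding transcript as gene length.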

Additional observations from a re-analysis of the deposited data

Results flagged for a closer look

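In 26 groups of values (the CPM of each of the 10 genes and the family shares of Myc, Ccnd2 and Cdk4, in each tumour group), 3 held a tumour far from the others by Dixon's test, of which chance gives about 1 in 20. All were translocation tumour 5. Its Myc was 320.2 CPM, with a gap to the next tumour of 0.958 of the group's range. Its Mycl was 35.1 CPM, with a gap of 0.975 of the range. Its Cdk4 was 718.3 CPM, with a gap of 0.919 of the range.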

How the results depend on the processing

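No paired analysis was possible because the replicate numbers used here follow the order of the samples and no number in the titles joins a translocation tumour to a Rosa26 tumour. The muscle shares one with a single tumour. The number of the 10 genes called between tumour groups was 2 with the DESeq2 Wald test, which gave Myc no adjusted p. That number was 0 to 1 when 1 tumour was left out. Against muscle it was 3 in the translocation and 5 in the Rosa26 tumours with the Wald test, 3 and 3 without translocation tumours 2 and 5 and Rosa26 tumour 4, and 1 to 2 and 1 to 3 when 1 tumour was left out. Ccnd2 was called in each of these fits. Calls over all genes also rose with the Wald test and without those 3 libraries. Over all genes, calls between tumour groups were 460, and 2439 with the Wald test, 141 with translocation tumours 2 and 5 summed and Rosa26 tumours 5 and 6 summed, and 63 to 744 with 1 tumour left out. Translocation calls against muscle were 2752, and 4896 (Wald), of 22184 genes. They were 6133 of 21248 (those 3 libraries out) and 2079 to 5115 of 21511 to 22166 (1 out). Rosa26 calls were 3560, and 5904, 7023 and 2523 to 6014, of the same numbers of genes. DESeq2 size factors moved the median log2 fold change of all genes against muscle from 0.74 to 0.61 and from 0.64 to 0.50.

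Between tumour groups, leaving out the 3 libraries turned Myc to -1.59, Mycl to -2.10, Cdkn1a to -0.13, Ccna2 to -0.29, Tfdp1 to -0.14 and Bmi1 to -0.058, and turned Myc against muscle to -0.0031. Summing the pairs turned Cdkn1a to -0.41. With 1 tumour left out, log2 fold changes ran from -1.43 to 1.20 for Myc, -2.44 to 1.78 for Mycl, -0.26 to 0.21 for Ccnd2, -0.48 to 0.43 for Cdkn1a, -0.33 to 1.54 for Ccna2, -0.18 to 0.84 for Tfdp1 and -0.027 to 0.36 for Bmi1. In the translocation tumours against muscle they ran from -0.079 to 0.99 for Mycn and -0.0033 to 4.22 for Mycl. The causes were not tested. The Odc1 call was also lost with no filter (edgeR adjusted p = 0.0577), without those 3 libraries (edgeR adjusted p = 0.0686) and with those pairs summed (edgeR adjusted p = 0.0704). Depth limits Mycn and Mycl, at 0 to 4.20 CPM outside translocation tumour 5. The single muscle library limits each comparison with muscle.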
